A study of Mus musculus with 72 samples.

Results

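Binding of the transcription factor TFE3 was measured by chromatin immunoprecipitation sequencing (ChIP-seq) in microglial nuclei from wild-type (WT) and Sgsh-deficient (SgshKO) mice, and was read as the TFE3 pool of each genotype over the input pool of that genotype, input being chromatin that was not precipitated. The regions were 91770 sites of open chromatin in microglia, each read in a window of 200 bp. A peak was counted as bound where the mean over the genotypes of log2((TFE3 + 1)/(input + 1)), in tags (aligned reads) per 10M tags of the pool, was at least 1, which is 2-fold. By this rule 54629 of the 91770 peaks (59.5%) were bound. The values of TFE3 and input alone chose these peaks, so their enrichment over input is a description.

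Mice were of the C57BL/6 strain, and nuclei came from brain, sorted as positive for PU.1 and DAPI and negative for OLIG2 and NEUN. For TFE3 there were 3 WT and 2 SgshKO samples, with 3 WT and 2 SgshKO inputs, fixed with DSG and then formaldehyde, and the labels give no age for them. The deposited columns merge these samples into 1 pool for each genotype, so no factor value has a replicate error and none was tested. The acetylation of histone H3 at lysine 27 (H3K27ac), a mark of active promoters and enhancers, was deposited as 8 separate microglial libraries, 2 for each genotype at 4 and at 8 months, and could be tested. Nothing in the labels says whether replicates came from separate animals, so p-values measure the spread between these libraries only.

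TFE3, TFEB, MITF and TFEC form the MiT/TFE family of basic helix-loop-helix leucine zipper factors. They bind E-box elements with the core CACGTG, in lysosomal promoters often preceded by T, and are known as activators of genes for lysosomal enzymes, the proton pump, autophagy and lysosomal membrane proteins. The kinase mTORC1 phosphorylates them at the lysosome, where the Rag GTPases and folliculin take part, and holds them in the cytoplasm. Sgsh encodes sulfamidase, one of the lysosomal enzymes for heparan sulfate, and people who lack it have mucopolysaccharidosis IIIA. Microglia are the phagocytes of the brain and carry a large lysosomal load.

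Stretches of 51 bases around TCACGTG are printed for 10 genes of the lysosome and its sensing machinery, chosen after their values were seen. Which bases TFE3 bound was not tested. At Fnip1 the element lies past the end of the 200 bp window in which TFE3 was read, chr11:54437891-54438091. They come from the RefSeq promoter table for GRCm38.p6 (mm10), which holds 300 bases for each start site (250 before it and 50 after), and each is given 5′ to 3′ on the strand that reads TCACGTG, in capitals.
Naglu, chr11:101069998-101070048, + strand: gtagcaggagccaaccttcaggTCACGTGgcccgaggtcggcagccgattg
Sgsh, chr11:119355511-119355561, + strand: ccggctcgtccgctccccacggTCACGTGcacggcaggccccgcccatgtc
Gaa, chr11:119267800-119267850, + strand: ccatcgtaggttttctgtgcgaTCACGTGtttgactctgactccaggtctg
Ctsd, chr7:142387897-142387947, + strand: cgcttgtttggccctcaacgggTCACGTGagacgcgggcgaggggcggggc
Glb1, chr9:114401007-114401057, + strand: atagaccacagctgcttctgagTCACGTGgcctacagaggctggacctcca
Mcoln1, chr8:3500452-3500502, - strand: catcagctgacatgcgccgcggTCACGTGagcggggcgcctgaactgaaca
Atp6v1a, chr16:44139362-44139412, + strand: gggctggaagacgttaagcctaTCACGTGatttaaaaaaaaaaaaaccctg
Rragc, chr4:123917299-123917349, - strand: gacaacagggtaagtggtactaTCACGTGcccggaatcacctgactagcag
Fnip1, chr11:54438082-54438132, - strand: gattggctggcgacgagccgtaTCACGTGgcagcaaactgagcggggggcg
Lamtor1, chr7:101905746-101905796, + strand: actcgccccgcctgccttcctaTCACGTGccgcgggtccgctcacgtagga

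The middle base of the element lay 71 bases before the start site at Naglu (alpha-N-acetylglucosaminidase), 26 before it at Sgsh and 109 before it at Rragc (a Rag GTPase). At Naglu the WT pool held 636 TFE3 tags per 10M over 9.39 in its input, and at Rragc it held 168 over 13.9. At the Sgsh start site it held 19.1 over 8.57, so these letters stood in promoters that differed widely in TFE3. Of all 32851 windows of the promoter table, 3.77% held TCACGTG on either strand.

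The whole promoter window of Naglu shows how small a part of it the element takes. It spans chr11:101069844-101070143 on the + strand, with CACGTG in capitals.
Naglu promoter: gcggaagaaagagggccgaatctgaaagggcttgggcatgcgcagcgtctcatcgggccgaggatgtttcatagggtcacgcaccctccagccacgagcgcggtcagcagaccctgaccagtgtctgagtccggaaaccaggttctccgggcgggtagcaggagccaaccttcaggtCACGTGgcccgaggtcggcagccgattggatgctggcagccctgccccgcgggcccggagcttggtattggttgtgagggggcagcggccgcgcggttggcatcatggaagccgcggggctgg

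The window of C1qc, a subunit of complement C1q made by microglia, is shown as a strong promoter without CACGTG. It spans chr4:136892865-136893164 on the - strand and holds TCATGTG, another E-box that MiT/TFE factors bind, once on the opposite strand. It holds a single GGAAGT, the core read by PU.1 and other ETS factors, in capitals as its reverse complement.
C1qc promoter: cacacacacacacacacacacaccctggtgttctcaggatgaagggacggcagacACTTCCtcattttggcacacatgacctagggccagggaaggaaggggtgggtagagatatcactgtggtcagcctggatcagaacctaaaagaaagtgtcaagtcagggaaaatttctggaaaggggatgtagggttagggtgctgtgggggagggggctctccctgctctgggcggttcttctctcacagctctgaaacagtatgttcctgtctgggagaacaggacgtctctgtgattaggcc

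The WT pool held 35704403 tags for TFE3 and 48984909 for input, and the SgshKO pool held 43905485 and 40351089. Of the TFE3 tags, 20.7% lay in the peaks in WT and 33.0% in SgshKO, against 4.86% and 2.63% of the input tags. The SgshKO input was thin: 43670 peaks (47.6%) held 0 of its tags while only 2138 held 1, against 3726 and 4341 in the WT input, so its tags were clumped and intervals from counting error understate its error. For single peaks, values over the SgshKO input are therefore given as tags wherever that input held 3 tags or fewer, or as a lower bound against a floor of 3 tags where it held 0. The bound and strong classes, the order of named members and every mean over the genotypes use the ratio with the pseudocount at such peaks too. The SgshKO TFE3 pool was clumped as well, with 0 tags at 12914 peaks and 1 tag at 722, against 4954 and 3440 in the WT TFE3 pool. In SgshKO the MITF and TFEB pools held 0 tags at 30669 and 42223 peaks and 1 tag at 771 and 864. Intervals and floors from counting error understate the error of these SgshKO pools too. H3K27ac at the promoters of the microglial markers summed to 2509 to 2875 tags per 10M over the 4 WT libraries and to 2001 to 2381 over the 4 SgshKO libraries, with 9 of 10 markers measured. The sum for oligodendrocyte markers was 276 to 301 in WT and 172 to 200 in SgshKO, with 6 of 10 markers measured and Mag, Sox10 and Mobp among those without a promoter peak, and for neuronal markers, with 2 of 8 measured, it was at most 6.62. For astrocyte markers it was 40.5 to 49.6 in WT and 42.7 to 49.8 in SgshKO (3 of 6 measured), and for endothelial markers 90.4 to 122 and 79.4 to 96.4 (3 of 5 measured).

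In the WT pool 41158 peaks (44.8%) held at least 2-fold more TFE3 than input, and in the SgshKO pool 62058 (67.6%) did. Of the SgshKO peaks, 33118 (53.4%) had 0 tags in the SgshKO input, and against the WT input, an alternative chosen after the data were seen, 50966 (55.5%) SgshKO peaks passed. Both genotypes passed separately at 34508 peaks, which are 83.8% of the WT peaks and 55.6% of the SgshKO peaks. At 4-fold in both genotypes separately, 18843 peaks (20.5%) passed, and these are called strong peaks below. The 100 bound peaks just inside the threshold reached down to a mean log2 of 1.00 and held a median of 10.5 WT and 23.5 SgshKO tags, and the 100 just outside it held 12 and 31.5. Across the 91770 peaks the WT and SgshKO TFE3 tags had a Spearman correlation of 0.77, a description over peaks that share chromatin openness and mappability.

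**Figure D1:**
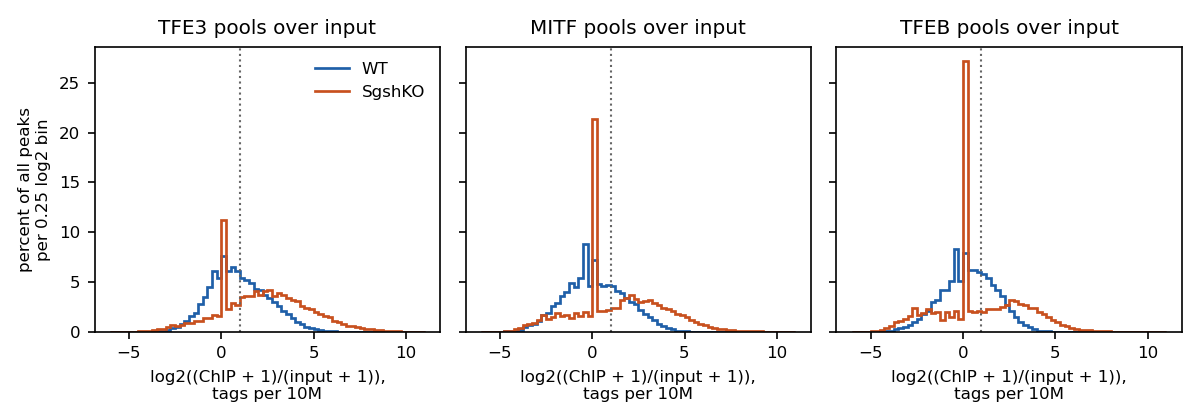
Distribution over 91770 peaks of the log2 ratio of ChIP to input, with 1 tag per 10M added to each, for the pools of TFE3, MITF and TFEB (x axis), as the percent of peaks in each bin (y axis), with WT in blue and SgshKO in orange and a dotted line at 2-fold. The TFE3 median was 0.79 in WT and 2.21 in SgshKO, the spike at 0 in SgshKO holds peaks without tags in ChIP and input, and the MITF and TFEB curves lie further left.

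TFE3 was found most often at start sites. Peaks annotated as promoters were 17.7% of all peaks but 21.3% of the bound and 23.1% of the strong peaks, and 71.7% of the 16248 promoter peaks were bound. Introns held the largest number of bound peaks, 23615, with 57.1% of intronic peaks bound, and 58.7% of intergenic peaks were bound. Exons had the lowest share among these annotations, with 44.1% of 3058 peaks bound. By distance, 78.0% of the peaks within 100 bp of a start site were bound and 30.6% were strong. The share of bound peaks was 54.4% between 1000 and 10000 bp and 62.3% beyond 50000 bp, so binding was not limited to promoters.

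The 10 bound peaks with the highest mean over input were taken among peaks with at least 20 tags in each TFE3 pool. Only those at C1qc and Ccl3 were promoters, near the share of promoters among all peaks (17.7%) and bound peaks (21.3%). The SgshKO input held 0 tags at 9 of the 10 peaks, so their order rests on the pseudocount. The highest by this mean lay in an intron of Dusp27, at chr1:166105545-166105745 (mm10), with 667 tags per 10M in WT and 1297 in SgshKO over inputs of 6.33 and 0. The peak 3302 bp before Atp13a2, which encodes a lysosomal pump, at chr4:140983471-140983671, held 702 and 1170 over 10.0 and 0. The next were an intron of Amz1 with 752 and 1598, and intergenic peaks nearest A530013C23Rik with 859 and 1251 and 2700070H01Rik with 354 and 996. Against the 3-tag floor of their empty SgshKO input these 5 peaks were at least 1339-fold to 2149-fold above it in SgshKO.

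An intron of Snx24 held 597 and 1135 tags per 10M. The peak 155 bp from the start of C1qc held 709 and 1003, the highest WT level among the promoters of these 10 peaks. The intergenic peak nearest Ubl3 held 200.3 in WT and 1168 in SgshKO, and the one 5897 bp before Scaf11 held 329 and 896 over inputs of 2.45 and 0.50. By WT log2 over input alone Scaf11 (6.58) stood above Dusp27 (6.51), and the highest of all peaks reached 6.82. The promoter of Ccl3, a chemokine gene of activated microglia, held 377 and 1243 over 7.55 and 0. Only the Ubl3 peak differed by over 2-fold between the pools after scaling, with a TMM-scaled fold of 3.49.

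For the gene lists, 1 promoter peak was taken for each gene, the one nearest the start site and within 1 kb of it. Of 13128 genes with such a peak, 9697 (73.9%) were bound, 3760 (28.6%) were strong and 4251 (32.4%) passed 4-fold in the WT pool alone, and the median WT log2 over input was 1.24. The lists are read against these values. Bound is judged by the mean over the genotypes, so a promoter below 2-fold in WT can count as bound. The SgshKO input held 0 tags at 6776 of the 13128 promoters. Their members were chosen with earlier results known, so no test was made on them, and some genes stand in 2 lists (such as Cd63, Apoe and Gusb).

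Acid hydrolases of the lysosome were bound at every promoter measured by the mean over the genotypes, but not at every one in WT alone. All 35 of the 38 genes with a promoter peak were bound, 24 (68.6%) were strong, and the median WT log2 over input was 2.93. Fuca1 (0.11), Acp2 (0.25), Gla (0.55), Lgmn (0.80) and Arsb (0.90) lay below 2-fold in WT and passed through the SgshKO ratio. The SgshKO input held 0 tags at 13 of the 35 promoters. Hexa, which encodes a subunit of beta-hexosaminidase, led the list by the mean over both genotypes with 217 tags per 10M in WT and 452 in SgshKO, over inputs of 7.76 and 0.25. It was followed by Dnase2a with 129 and 201, Ctsc (cathepsin C) with 105 and 262, and Ctsl (cathepsin L) with 119 and 349. WT inputs at these 3 lay between 5.72 and 12.9, and the SgshKO inputs of Dnase2a and Ctsc were 0 tags. By WT log2 over input Ctsz (cathepsin Z), looked up after its values were seen, stood highest at 4.73, above Hexa at 4.64.

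The WT levels of the hydrolase promoters ran from 2.24 to 327 tags per 10M. Ctsd (cathepsin D) held 199 and 330 at its promoter and 576 and 1508 at a peak 15891 bp before its start. Neu1 (neuraminidase) held 165 and 271. The lowest of the named promoters were Ctsb (cathepsin B) with 26.6 and 88.1 and Ctsa (protective protein of neuraminidase) with 25.8 and 23.5. An intronic Ctsb peak 6746 bp into the gene held 590.1 and 1498, well above the promoter.

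Heparan sulfate is broken down stepwise by sulfatases, glycosidases and an acetyltransferase, and these genes included the lysosomal promoter with the highest WT log2 over input. All 9 of 10 genes with a promoter peak were bound, 5 (55.6%) were strong, and the median WT log2 over input was 2.98. Naglu held 636 tags per 10M in WT and 1051 in SgshKO over inputs of 9.39 and 11.2, and ranked 4 by WT log2 over input (5.94) among the 13128 promoters. Arsg (arylsulfatase G) held 37.5 and 239, Hgsnat (the acetyltransferase) 52.4 and 38.04, and Gusb (beta-glucuronidase) 82.3 and 175.

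Sgsh itself had a second promoter peak that was much stronger. The peak 8 bp from its start site, chr11:119355402-119355602, held 19.1 tags per 10M in WT and 65.4 in SgshKO over inputs of 8.57 and 3.97. The peak 504 bp into the gene, chr11:119354906-119355106, held 338 and 598 over 18.2 and 2.23, a WT log2 over input of 4.14. Where in Sgsh the deletion lies was not analysed here, and these values do not check the genotype. Hpse (heparanase) held 0.56 and 42.6 at its promoter.

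Lysosomal membrane and transport genes were bound at 25 of 27 promoters (30 genes), 16 (59.3%) of them strong, with a median WT log2 over input of 3.08. Cd68, a microglial lysosomal glycoprotein, held 770.5 and 1169 over inputs of 31.0 and 0. Cd63, a tetraspanin of late endosomes, held 149.8 and 610.4 over 2.04 and 3.47, and ranked 14 in WT log2 over input (5.63). Lamp2 held 99.7 and 225, Lamp1 76.5 and 198, and Mcoln1 (the lysosomal calcium channel) 50.1 and 167, each over a WT input of at most 2.45. By WT log2 over input these 5 promoters ranked between 14 (Cd63) and 151 (Mcoln1) of 13128.

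The vacuolar ATPase acidifies the lysosome, and its subunits had the highest share of strong promoters among the lists. All 15 of 16 genes with a promoter peak were bound, 13 (86.7%) were strong, and the median WT log2 over input was 3.50. Atp6v1b2 held 188 and 345, Atp6v1g1 187 and 367, Atp6v1c1 154 and 420.0, and Atp6v1e1 136 and 216, over WT inputs of 4.90 to 12.7 and SgshKO inputs of 0 tags. Atp6v0d1 held 108 and 279.7 over 19.6 and 2.23, and Atp6v1h held 12.04 and 58.5. Atp6v0d2, the subunit gene of osteoclasts and activated macrophages, had no promoter peak, and the peak nearest its start, 26722 bp away, was not bound with 8.12 and 16.4 over 9.39 and 22.1. An intronic peak 27792 bp from that start held 67.5 and 258.

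Autophagy genes were bound at 30 of 33 promoters (34 genes), and 16 (48.5%) were strong, with a median WT log2 over input of 2.15. Gabarap, an autophagosome membrane protein, held 119.6 and 204, Uvrag, a regulator of autophagosome maturation, 132 and 221, Atg3 49.0 and 94.8, and Vps33a 95.2 and 158. SgshKO inputs were 0 tags at all 4. Sqstm1, the autophagy receptor p62, held 2.24 over 4.70 at its promoter in WT and 23.7 over 1.73 in SgshKO, and 102 and 437 at a peak 2359 bp before its start, over 2.65 and 12.9. The promoter counts as bound by the mean of the genotypes. So do those of Stx17, Map1lc3a and Calcoco1, which lay below input in WT (log2 of -0.82, -0.61 and -0.50).

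Genes of nutrient sensing at the lysosome were bound at 21 of 22 promoters (24 genes), with 9 (40.9%) strong and a median WT log2 over input of 1.90. Rragc held 168 and 548 over 13.9 and 0, and 387 and 825 in an intron 10743 bp from its start. Fnip2, a partner of folliculin, held 262 and 529 over 7.55 and 2.73. Lamtor3 held 148 and 150.8, Lamtor2 55.2 and 128, Flcn (folliculin) 138 and 211, and Fnip1 99.7 and 176. Rragd stood apart with 0.56 and 0.23 at its promoter, and a peak 405 bp into its 5′ UTR held 1.68 in WT (6 tags) and 39.2 in SgshKO.

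The factor's own family was bound both at promoters and away from them. At the promoters the pools held 32.8 and 44.4 for Tfeb, 28.6 and 78.4 for Mitf and 19.1 and 13.4 for Tfe3, with a median WT log2 over input of 1.97 for these 3. All 3 were bound. Further peaks in RefSeq promoter windows held 75.3 and 68.1 at Tfeb and 46.5 and 45.3 at Tfe3, both strong. An intron of Tfeb, chr17:47757140-47757340, held 319 and 1018 over inputs of 6.33 and 0, and a peak 18284 bp before Mitf held 30.3 and 132. Tfe3 had 35.9 and 57.2 in an intron. The intergenic peak 65672 bp before Tfec held 47.6 and 73.6. All 4 genes had at least 1 strong peak, against 49.5% of the 17121 genes with any peak. The 4 genes held 53 peaks and the 17121 genes 91728, fewer for each gene, so the family had more chances of a strong peak. By peak, 40 of the 53 (75.5%) were bound, against 59.6% of the 91728.

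**Figure D2:**
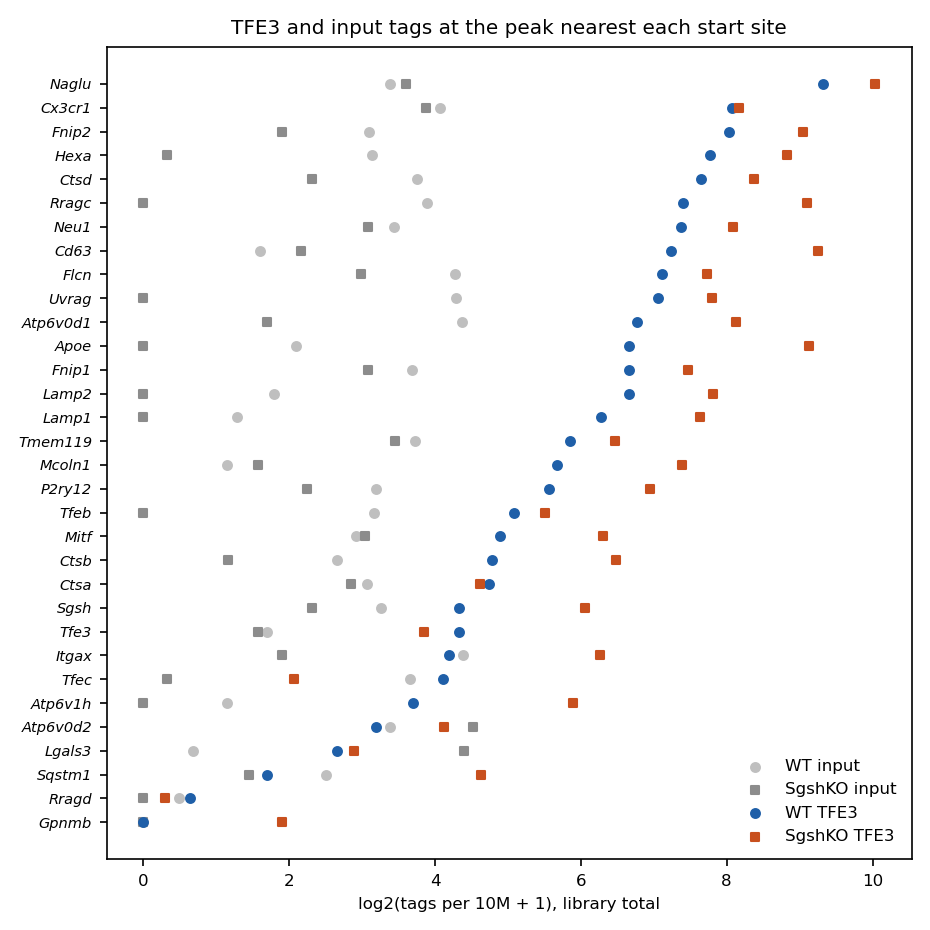
TFE3 and input level at the peak nearest the start site of 32 genes, as log2(tags per 10M + 1) scaled by library total (x axis), genes ordered by the WT TFE3 pool. Naglu stands highest with 636 in WT and 1051 in SgshKO tags per 10M, and Gpnmb, Rragd and Sqstm1 stand lowest with 0, 0.56 and 2.24 in WT.

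Regulators of mitochondria and lipids were nearest to the background. Of 21 genes with a promoter peak (of 22), 19 were bound and 4 (19.05%) were strong, below the 28.6% of all promoters, and the median WT log2 over input was 1.33. Apoe, the lipid carrier of the brain, held 101 and 559.8 over 3.27 and 0. Srebf2, the regulator of cholesterol synthesis, held 82.9 and 196, and Nceh1, a cholesteryl ester hydrolase, 40.9 and 101 over 0.20 and 5.45. Pparg held 0 tags in both pools.

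Genes of disease-associated microglia (DAM), a state of activated microglia around damage, and genes of homeostatic microglia were both above the background. Of 34 DAM promoters (35 genes) 30 were bound and 16 (47.1%) were strong, and of 24 homeostatic promoters (25 genes) 21 were bound and 17 (70.8%) were strong. The median WT log2 over input was 1.99 for DAM and 2.58 for homeostatic genes. By the mean over both genotypes the DAM promoters led with Ccl3, Apoe, B2m (the light chain of MHC class I, 197 and 398) and Cd63, and SgshKO inputs were 0 tags at the first 3. By WT log2 over input Cd63 stood highest at 5.63, with Ccl3 at 5.47 and Apoe at 4.57. The homeostatic ones by the mean were Cst3 (cystatin C) with 334 and 429, Tgfbr2 (a TGF-beta receptor) with 112 and 126, Mef2a with 102 and 108, and Siglech with 220.4 and 245, while in WT alone Tgfbr2 (4.72) stood above Cst3 (4.66).

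Some DAM genes had little TFE3 at their start. The peak nearest the start of Gpnmb held 0 tags in WT and 2.73 in SgshKO, and Lgals3 (galectin-3) held 5.32 over 0.61 in WT and 6.38 over 20.1 in SgshKO. Lgals3 had 72.5 and 233 at a peak 22895 bp before its start, over 1.02 and 2.48. Itgax, which encodes the integrin CD11c, held 17.4 in WT, below its input of 19.8, and 75.6 in SgshKO over 2.73, and counts as bound. Of the microglial identity genes, Cx3cr1 held 269 and 288, Tmem119 56.9 and 87.9 and P2ry12 46.5 and 122 at their promoters. A peak 13208 bp from Tmem119 held 513 and 819.

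Among the microglial markers 7 of 9 promoters were strong, and among the oligodendrocyte markers 0 of 6 were, with a median WT log2 over input of 0.69. The oligodendrocyte marker promoters with more than 3 tags per 10M in WT were Cnp with 28.6, Mog with 11.5 and Mbp with 3.08.

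**Figure D3:**
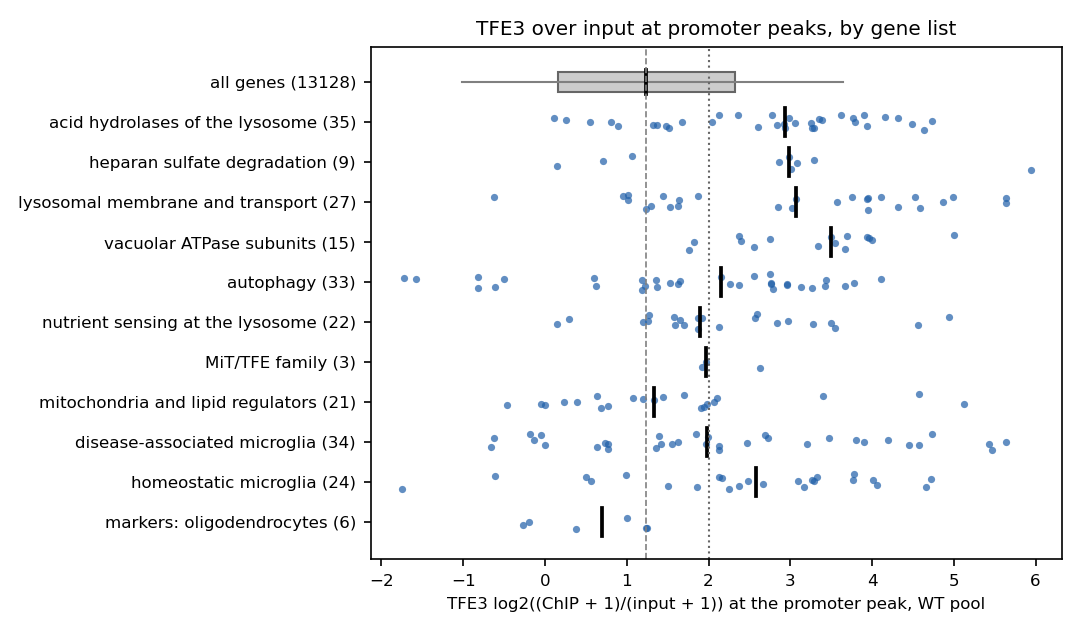
TFE3 log2((ChIP + 1)/(input + 1)) in the WT pool at the promoter peak of each listed gene (points), with the median of the list as a black bar and the number of genes in brackets; the box spans the quartiles and the whiskers the 5th to 95th percentile of all 13128 promoters. The dashed line is the median of all promoters, 1.24, the dotted line is 4-fold, and the vacuolar ATPase median of 3.50 is furthest to the right.

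E-box letters were more frequent in promoters with more TFE3. The RefSeq windows held the centre of 9223 peaks at 8660 genes, and CACGTG stood in 10.9% of these windows against 7.15% of all windows, TCACGTG in 6.16% against 3.77%. From the lowest to the highest decile of WT TFE3 over input, the share with TCACGTG was 2.60% and 13.4%, and that with CACGTG 6.07% and 19.4%. TCATGTG stood in 1.73% and 4.12%, and 44.7% of the windows with it were strong against 31.5% of those without. CAGCTG, an E-box core of other helix-loop-helix factors, stood in 14.4% and 17.7%. GGAAGT, read on both strands as all were, stood in 23.2% and 38.03%. Of all windows of the table, 3.77% held TCATGTG, 16.3% CAGCTG and 23.8% GGAAGT, against 2.04%, 15.4% and 30.2% of the windows with a peak. GGGCGG, which holds only G and C, stood in 68.3% of the windows with a peak against 35.7% of all windows. From the lowest to the highest decile its share was 60.1% and 67.0% in WT and 62.5% and 74.4% in SgshKO. The part of base composition in the shares of these motifs was not tested. The median WT log2 over input was 2.17 with TCACGTG and 1.35 without it, and 53.7% of the windows with it were strong against 30.3% of those without. TCACGTG contains CACGTG, so the pair are not independent counts.

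The same windows split MITF and TFEB alike. With and without TCACGTG the median log2 over input was 2.09 and 1.13 for MITF and 1.89 and 0.93 for TFEB. Of 114 windows of the listed lysosomal, autophagy, nutrient and lipid genes, 22 (19.3%) held TCACGTG, against 546 of 9109 other windows (5.99%). Listed windows with it had a median WT log2 over input of 3.26 and those without it 2.01. For other genes the medians were 2.12 and 1.34, so listed windows without these letters also had a higher median than other genes without them. Sequences of distal peaks were not analysed here.

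**Figure D4:**
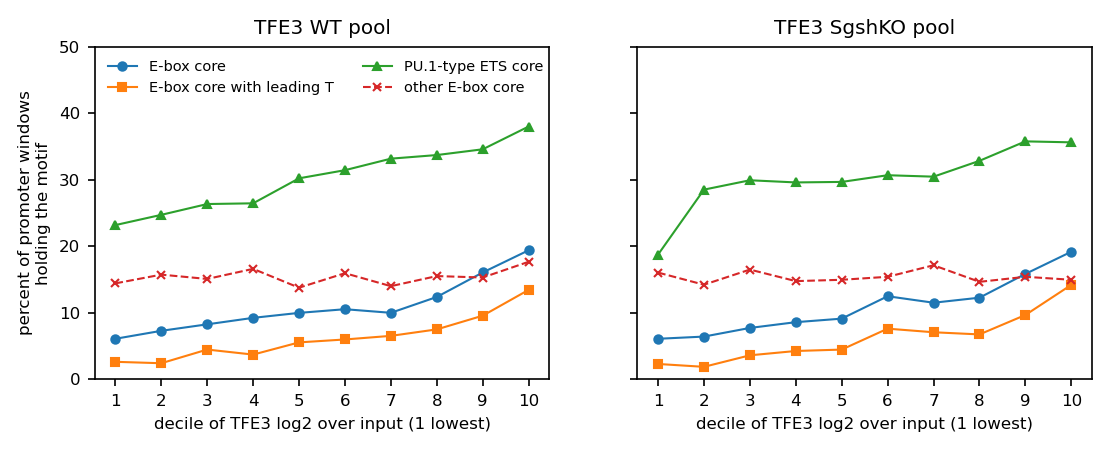
Percent of promoter windows that hold a motif on either strand (y axis) in each decile of TFE3 log2 over input (x axis), for the WT pool and the SgshKO pool, with 922 or 923 peaks in each decile. The E-box core with a leading T goes from 2.60% to 13.4% in WT and from 2.28% to 14.2% in SgshKO, while the other E-box core stays between 13.8% and 17.7% in WT.

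TFE3 gave the strongest signal over input of the 3 factors. MITF passed 2-fold at 37331 peaks (40.7%) and TFEB at 33222 (36.2%), and the median log2 over input was 1.42 for TFE3, 0.57 for MITF and 0.42 for TFEB. Of the TFE3 tags, 20.7% and 33.0% lay in the peaks in WT and SgshKO, against 10.7% and 17.9% for MITF and 9.46% and 10.3% for TFEB. MITF or TFEB passed at 47762 of all 91770 peaks. Of the TFE3-bound peaks, 39619 (72.5%) were also bound by MITF or TFEB and 15010 (27.5%) by neither, and 8143 of the 47762 peaks of MITF or TFEB (17.0%) were not bound by TFE3. The factors share the input pools, so these counts describe the peaks and are no test of shared binding.

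Set against each other without input, TFE3 remained above the other factors, by less after scaling. In WT the median log2 of TFE3 over MITF was 0.80 by library total and 0.31 after TMM scaling, and over TFEB it was 0.64 and 0.12. In SgshKO it was 0.86 and 0.20 over MITF and 1.47 and 0.55 over TFEB. In WT, TFE3 was at least 2-fold above MITF at 44.2% of the peaks and at least 2-fold below it at 11.9%, and after TMM scaling at 31.1% and 20.0%. At promoters the WT medians by library total were 1.06 over MITF and 0.88 over TFEB. Each factor was precipitated with its own antibodies, and their part in these levels cannot be told apart from that of binding.

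The vacuolar ATPase, hydrolase and membrane lists were high for all 3 factors. The median log2 over input, as a mean over the genotypes, of the vacuolar ATPase promoters was 4.89 for TFE3, 3.28 for MITF and 2.63 for TFEB, with 0 SgshKO input tags at 8 of these 15 promoters. It was 4.18, 2.92 and 2.51 for the acid hydrolases and 3.97, 2.68 and 2.78 for the membrane and transport genes. All promoters had 2.17 for TFE3, 1.03 for MITF and 0.87 for TFEB. For Naglu, MITF held 313 in WT and 419 in SgshKO and TFEB 194 and 308, so all 3 factors were high there. For Cx3cr1, MITF held 90.5 and 41.7 and TFEB 97.3 and 63.1, below TFE3 at 269 and 288 in both genotypes.

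The peaks where TFE3 stood furthest above the other factors were of modest height. The promoter of Brip1, a helicase of DNA repair, held 62.5 and 37.1 TFE3 tags per 10M in WT and SgshKO, with 1.83 and 0 for MITF and 0 in both pools for TFEB. The promoter of Slc25a46 held 21.9 and 57.9 against at most 1.23, the peak 41925 bp before Tbc1d5 held 38.1 and 46.9 against at most 1.17, and an intron of Tcaf1 44.3 and 10.9 against 0 in all 4 pools. The peak 39359 bp before Eef1a1 held 22.1 and 44.6 against at most 1.41. These 5 peaks had little of either factor in both genotypes, which follows from how they were chosen.

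At the opposite end, among peaks chosen for TFE3 furthest below the higher factor, TFE3 was at or near 0 tags. An intron of Tlx1 held 0 TFE3 tags in both pools and 30.7 and 7.72 of MITF, and one of Plch2 held 0 and 0 against 31.4 and 8.03. An intron of Pcnx held 0 and 0 against 8.03 and 37.4, and one of Hipk2 1.40 and 0 against 21.5 and 33.3. The peak nearest Gm30173 held 0.28 and 0 against 17.9 and 17.6. In all 5 the higher factor was MITF.

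Between the genotypes, which peaks held more TFE3 could be compared, but not the balance of higher and lower peaks, which the scaling sets. With TMM scaling and at least 20 tags in the larger pool, 65730 peaks could be compared, of which 13685 (20.8%) were at least 2-fold higher in SgshKO and 14504 (22.1%) at least 2-fold lower, so 48.5% of the differing peaks were higher. By library total the median difference of these peaks moved from 0.00 to 0.69 and 26208 were higher and 8078 lower, 76.4% higher, and over the input of each genotype 42762 and 6416. Differences below are after TMM scaling. Peaks with many tags differed less often: at 500 tags or more (both pools added) 14.1% were higher and 8.37% lower, and at 20 to 50 tags 27.8% and 25.1%.

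MITF and TFEB pools often differed the same way, in samples of their own. MITF was at least 2-fold higher in SgshKO at 28.2% of the 65730 peaks and at 41.8% of those where TFE3 was higher, and TFEB at 20.3% and 31.7%. MITF was at least 2-fold lower at 33.0% of all and at 45.4% of those where TFE3 was lower, and TFEB at 41.8% and 52.3%. All pools were scaled together, so these shares are not independent.

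The bound peaks with the largest SgshKO excess had almost no TFE3 in WT. An intergenic peak nearest Gm12669, chr7:137709797-137709997, held 1 tag in WT, 0.28 per 10M with an exact Poisson 95% interval of 0.0071 to 1.56, and 302 in SgshKO with 286 to 318. The SgshKO interval covers counting error only and is too narrow for a clumped pool. An intron of Prkch, a protein kinase C, held 1.40 in WT and 469 in SgshKO, and a peak 114181 bp before Hif1a, on the same chromosome at chr12:73787043-73787243, held 1.40 and 292. The peak nearest Eif1a held 0 and 186, at least 133-fold higher with WT set to 3 tags, and the one 7454 bp before C77080 held 1.12 and 299. MITF was also higher at all 5, from at most 17.9 in WT to between 105 and 256 in SgshKO.

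The peaks bound in WT with the largest WT excess had no H3K27ac difference that passed. Introns of Ube2n, Gpbp1, Kansl1 and Stat3 held 59.1, 56.0, 55.2 and 48.2 in WT and 0 tags in SgshKO, at least 144-fold, 136-fold, 134-fold and 117-fold lower after scaling. These bounds cover counting error only, and the SgshKO TFE3 pool was clumped, so 0 tags there are less certain than the bounds imply. An intron of Dapk1 held 83.2 in WT and 0.68 in SgshKO (3 tags). H3K27ac at these 5 peaks had adjusted p-values of 0.145 to 0.71 (limma, Benjamini-Hochberg). MITF and TFEB held at most 19.7 in WT there, and the WT tags at these sites could not be compared between the 3 merged samples.

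Among the lists, DAM promoters leaned to SgshKO and homeostatic promoters to WT. Of 10560 promoters with enough tags, 1850 (17.5%) were at least 2-fold higher and 1461 (13.8%) lower. Of 30 DAM promoters 10 were higher and 1 lower, with a median of 0.52 against 0.00 for all promoters, and of 24 homeostatic promoters 1 was higher and 6 lower, with a median of -0.57. By library total and relative to all promoters the medians were 0.63 and -0.46. Acid hydrolases had a median of -0.03, with 2 higher and 1 lower of 35, the vacuolar ATPase 0.54, with 2 and 1 of 15, and autophagy 0.33, with 9 and 2 of 33. For membrane and transport genes 2 were higher and 4 lower of 27, for nutrient sensing 1 and 2 of 21, and for heparan sulfate degradation 4 and 2 of 9. The acid hydrolase promoters were thus high in TFE3 with a median near that of all promoters and few members past 2-fold.

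H3K27ac was tested at the same peaks in windows of 800 bp, on libraries of other samples than the TFE3 pools. Over both ages limma called 8704 of 69663 tested peaks (12.5%) higher and 7222 (10.4%) lower in SgshKO at a false discovery rate below 0.05. Of 47967 tested TFE3-bound peaks 6973 (14.5%) were higher and 5095 (10.6%) lower, and of 21696 peaks that were not bound 7.98% and 9.80%. Bound peaks also held more H3K27ac, with a WT median of 29.04 tags per 10M against 5.897 at peaks that were not bound. The part of this difference in level in the shares called was not tested. The 4 SgshKO libraries did not overlap the 4 WT libraries at 9670 of the 12068 called bound peaks. The share was similar over all called peaks, 12683 of 15926. Scaling by library total moved the median change of all tested peaks from -0.02 to -0.20 and gave 4594 higher and 8278 lower bound peaks, 35.7% higher against 57.8%. Bound promoters changed less often, 7.17% higher and 5.49% lower, than bound intronic and intergenic peaks, 17.3% and 12.2%. The H3K27ac sums of oligodendrocyte and of microglial markers, given above, were lower in every SgshKO library than in any WT library, and their part in these changes was not tested.

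H3K27ac calls leaned in the direction of the TFE3 difference between the genotypes, but many peaks with a TFE3 difference were not called. The shares below are given with TMM scaling only. Where the SgshKO pool held over 4-fold more TFE3 (log2 above 2), 51.1% of 2879 tested peaks had higher H3K27ac and 0.834% lower. Where it held over 4-fold less, 3.74% of 4359 were higher and 22.8% lower. Between log2 -0.5 and 0.5 the shares were 10.8% and 9.27% of 19509. The largest TFE3 gains lay at peaks of low H3K27ac, with a median of 6.55 tags per 10M in WT and 15.8 in SgshKO.

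**Figure D5:**
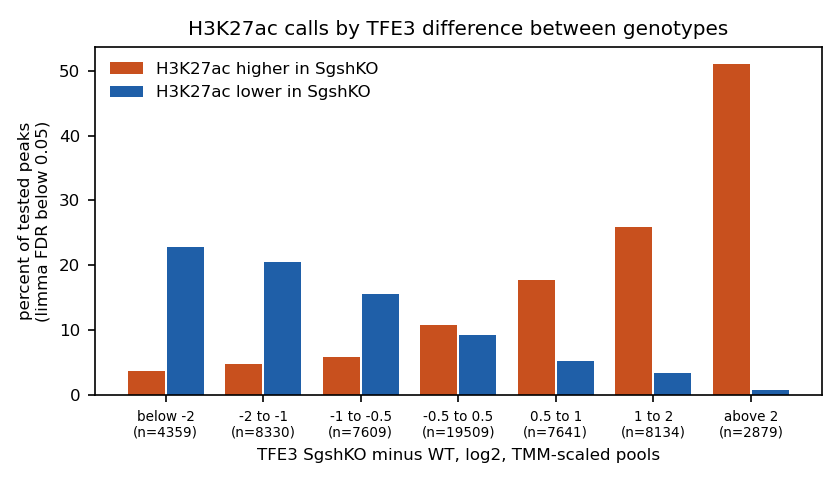
Percent of tested peaks with H3K27ac called higher (orange) or lower (blue) in SgshKO by limma at a false discovery rate below 0.05 (y axis), by the log2 difference of TMM-scaled TFE3 between the SgshKO and WT pools (x axis, number of tested peaks in brackets). The share called higher goes from 3.74% in the lowest bin to 51.1% in the highest, and the share called lower from 22.8% to 0.834%.

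Single genes showed both measurements. At Apoe, TFE3 held 101 in WT and 559.8 in SgshKO (TMM log2 1.73), and H3K27ac at its promoter was 23.2, 28.8, 40.4 and 16.5 tags per 10M in the WT libraries and 159.7, 167, 194 and 156 in the SgshKO libraries. The groups did not overlap, and the log2 change was 2.66 with a standard error of 0.203 (limma, adjusted p = 3.27e-14). In an intron of Fnip2, chr3:79539735-79539935, TFE3 held 85.4 and 1051 (2.87), and H3K27ac was 23.2, 28.8, 31.8 and 20.8 in WT and 146, 152, 139.8 and 132 in SgshKO. Its change was 2.42 (adjusted p = 9.6e-14), and that of the Fnip2 promoter was 1.08. In an intron of Hpse, TFE3 held 40.1 and 514 (2.91) and H3K27ac rose from 5.65 to 155.

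H3K27ac also rose at other listed genes, but not at all of them. At Cd63, H3K27ac was 86.4, 113, 114 and 92.6 in WT and 239.9, 292, 270.3 and 279.6 in SgshKO, a log2 change of 1.41 (limma, adjusted p = 7.33e-12), with a TFE3 difference of 1.28. In the Tfeb intron it rose by 1.04, at the peak 18284 bp before Mitf by 2.43, at the peak 2359 bp before Sqstm1 by 2.72 and at the Lgals3 peak 22895 bp away by 1.59, with TFE3 differences of 0.94, 1.36, 1.36 and 0.94. At the 5′ UTR peak of Rragd, H3K27ac rose from 3.22 to 61.7. At the nearest Gpnmb peak, which was not bound, it rose from 1.15 to 11.4. Naglu, with the highest TFE3 of the listed enzymes, held 109 in WT and 134 in SgshKO and did not pass (limma, adjusted p = 0.148). The Ctsz promoter had a TFE3 difference of 1.22, and its H3K27ac did not pass (limma, adjusted p = 0.267). In the Ctsb intron 6746 bp into the gene the TFE3 difference was 0.61, while H3K27ac fell by 0.31 (limma, adjusted p = 0.041).

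DAM promoters were called higher in H3K27ac more often than all promoters, and homeostatic promoters lower. Of all 10824 tested promoters 699 (6.46%) were higher and 584 (5.4%) lower, and by library total 373 (3.45%) and 1184 (10.9%). DAM promoters were higher at 19 and lower at 0 of 32, and 16 and 0 by library total. Homeostatic promoters were higher at 0 and lower at 8 of 24, and 0 and 12 by library total. Without the second WT or the first SgshKO library of 8 months, 5 and 4 homeostatic promoters were lower. Acid hydrolases were higher at 9 of 35 but at 3 by library total, and at 6 to 10 with 1 library left out. Heparan sulfate genes were higher at 2 of 9 under both scalings. Membrane and transport genes were higher at 6 of 27 and at 1 by library total, and at 4 to 6 with 1 library left out. The vacuolar ATPase was higher at 5 of 15 and at 2 by library total. Without the second SgshKO library of 4 months 2 of its promoters were higher, and without the second WT or the first SgshKO library of 8 months 3 were. Nutrient sensing was higher at 5 of 21 and at 3 by library total, and lipid and mitochondrial regulators at 8 of 19 and at 6, with 1 and 2 lower. No promoter of the hydrolase, membrane, vacuolar ATPase and nutrient lists was lower under either scaling. Autophagy had 4 higher and 0 lower of 33, 2 higher without the first WT library of 4 months, 2 lower without the first SgshKO library of 8 months, and 0 higher and 3 lower by library total, near that background.

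Named calls that depended on this scaling were Dusp27, Amz1, Snx24 and Ccl3 among the top TFE3 peaks and the promoters of Mitf, Rragc, Lamp1, Ctsb, Atp6v1h, Atp6v0d1 and Sqstm1 with an intron of Ctsa, which passed with TMM scaling and not by library total. With TMM scaling their log2 changes lay between 0.49 and 0.80. The Tmem119 promoter fell by 0.46 (limma, adjusted p = 0.045) and did not pass under edgeR or DESeq2.

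The TFE3-bound peaks with the smallest p for higher H3K27ac and no overlap of libraries were an intron of Nceh1, with TFE3 of 33.1 and 380.4 and H3K27ac of 15.1 and 204, a peak nearest Rap2b, the Hpse intron, a peak nearest 4933427D06Rik and an intron of Lrguk. TFE3 was higher in SgshKO at all 5 after TMM scaling, by 1.505 to 5.03, but over the input of each genotype it was lower at Rap2b (-1.53). For lower H3K27ac they were peaks nearest Cdk5rap3 (at 2 sites), Mir152, 4930453L07Rik and 6030468B19Rik. Peaks among these, such as those nearest Cdk5rap3, lie on chromosome 11, as Sgsh does. Any part of DNA linked to the deleted copy of Sgsh was not tested. Near Cdk5rap3, at chr11:96885801-96886001, TFE3 held 59.7 and 18.9 and H3K27ac 243, 275, 258 and 259.96 in WT and 44.2, 20.3, 35.3 and 27.2 in SgshKO. TFE3 was lower in SgshKO at all 5 after TMM scaling, by 1.09 to 4.10, but over the input of each genotype it was higher at this Cdk5rap3 peak (2.05), at 4930453L07Rik (0.80) and at 6030468B19Rik (2.68).

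Oligodendrocytes of the same series gave a second view of the same places. Of the microglial peaks, 22141 (24.1%) had an oligodendrocyte peak within 100 bp, and TFE3 passed 2-fold in the oligodendrocyte pools at 69.8% of these matched peaks. It passed at 76.8% of the matched bound peaks and 55.9% of the matched peaks that were not bound. The oligodendrocyte SgshKO input was thin as well, with 0 tags at 40398 of 82577 peaks (48.9%), which limits these calls. Strong promoter peaks were matched at 71.1%, against 60.3% of all promoter peaks, and strong intronic and intergenic peaks at 11.8%, against 15.3% of all of them.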

How the data were processed

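TFE3, MITF, TFEB and input were analysed from the deposited microglial factor table, with 1 merged column for each target and genotype, and H3K27ac from 8 libraries. The deposited values are signal, in tags per 10M tags per the file headers. Per the submitters' processing notes the tools included Bowtie2, HOMER and DESeq2 and the build was mm10, with no versions given. Whole tags were recovered from the step of the low values (100% whole within 0.02 of a step). The pools held 35704403 to 48984909 tags for TFE3 and input, and the H3K27ac libraries 12000879 to 15778229.

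The log2 ratios used a pseudocount of 1 tag per 10M and the library total. Genotype differences used TMM factors over the 6 factor pools and at least 20 tags in the larger pool. H3K27ac was filtered with filterByExpr, TMM-scaled and fitted as log2(tags per 10M + 1) with limma 3.58.1 (edgeR 4.0.16, R 4.3.3) for genotype with age as a term, two-sided, with a mean trend and Benjamini-Hochberg adjustment over all 69663 peaks. Alternatives were edgeR and DESeq2 1.42.0 on the recovered tags, other scalings, pseudocounts and thresholds, each age alone and each library left out. The fit was tested on simulated data. Exact Poisson intervals and the floor of 3 tags cover counting error only. Python 3.11.15 with pandas 2.3.3 did the rest.

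Named peaks were the 10 highest over input; for 34 fixed genes the peak nearest the start and the highest one; the 5 largest differences in each direction between genotypes and against MITF and TFEB; the 5 smallest limma p in each direction; and up to 4 members of each list in order of TFE3 over input. The lowest members and further values were added after they were seen. Some named members are not reported here. Members and lists were chosen with earlier results of these data known. Promoter sequences are RefSeq's for GRCm38.p6.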

Additional observations from a re-analysis of the deposited data

How the results depend on the processing

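TFE3-bound peaks numbered 23048 in WT at 4-fold and 26297 with ratios re-centred to a median of 0, against 41158, and 31088 in SgshKO re-centred, against 62058. Over both genotypes they numbered 34780 at 4-fold, 27518 re-centred and 34508 when each genotype had to pass, against 54629. Those also bound by MITF or TFEB numbered 25257 with a pseudocount of 5, 21085 at 4-fold, 24666 with 20 tags in each pool, 22722 re-centred and 21814 with both factors required, against 39619. With the WT input for both genotypes, chosen after seeing the data, 50966 passed in SgshKO, 45784 over both and 29693 with MITF or TFEB. Peaks at least 2-fold different between genotypes numbered 16246 with a pseudocount of 5 (6307 higher, 9939 lower) and 49178 over each input (42762 and 6416), against 28189. H3K27ac calls at bound peaks numbered 6570 at 4 months alone (4496 higher, 2074 lower) and 7080 at 8 months alone (3899 and 3181), against 12068, and 9532 to 11539 with 1 library left out. With the replicate number as a block they were 11694 (6844 and 4850); same-numbered libraries deviated together by 0.003 at 4 and -0.020 at 8 months, so they share only a number. edgeR gave 11928 and DESeq2 11144.

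Over the input of each genotype, the TFE3 difference reversed at Tfec (1.297, peak at 16943639), Brip1 (0.67), Rap2b (-1.53), Cdk5rap3 (2.05), 4930453L07Rik (0.80) and 6030468B19Rik (2.68), and over the mean of both inputs the WT ratio of the Lgals3 promoter was -0.84. The cause was not tested. The thin SgshKO input limits every SgshKO ratio most.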
